A study of Mus musculus with 12 samples.

Results

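The IL-1 family genes described here are 10 transcripts chosen by symbol: the agonists Il1a, Il1b, Il18 and Il33, the receptor antagonist Il1rn, and the receptors Il1r1, Il1r2, Il1rl1, Il1rap and Il18rap. Each was found by its Ensembl identifier among the 54232 genes listed in every count file, and 10 of 10 passed the filter on low counts that left 18618 genes for testing. RNA came from dorsal skin wounds of male C57BLKS/J mice with the Lepr (db/db) genotype, a leptin receptor mutation that causes obesity and diabetes. The mice were wounded at 12 weeks, per the design text, with a full-thickness punch of 6 mm, and the labels give an age of 12.5 weeks. Wounds were collected on day 10. The TD group (n = 5) had a Tegaderm film dressing only, the Strain group (n = 4) a patch inducing roughly 30% strain, and the No Strain group (n = 3) a no-strain patch, each put on right after wounding. All 3 groups carry the db/db mutation and all were wounded, so the libraries hold no nondiabetic and no unwounded skin. Nothing in the labels tells whether 2 wounds can belong to 1 mouse. The tests treat each library as independent, so p-values can be too small if wounds share a mouse. Differences are set against the spread between these libraries, which may in part be technical.

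The IL-1 family is a group of cytokines that act in the first hours of tissue injury and shape the inflammation that follows. IL-1 alpha, stored in keratinocytes and released when they are damaged, and IL-1 beta, made by activated neutrophils and macrophages, bind the receptor encoded by Il1r1, which then recruits the shared coreceptor encoded by Il1rap. The antagonist encoded by Il1rn occupies Il1r1 without signalling, and Il1r2 encodes a decoy receptor that binds IL-1 but lacks a signalling domain. IL-33, an alarmin of barrier and stromal cells, acts through the receptor encoded by Il1rl1, also called ST2, again with Il1rap. IL-18, made by keratinocytes and macrophages, acts through a receptor whose signalling chain is encoded by Il18rap. In wounds of diabetic mice, IL-1 beta is known for staying high after it has declined in nondiabetic mice.

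In the mouse genome (GRCm38, GENCODE M21 annotation) 4 of the 5 receptor genes lie in 1 cluster on the plus strand of chromosome 1. They follow each other as Il1r2 (chr1:40074079-40125231), Il1r1 (chr1:40225080-40317257), Il1rl1 (chr1:40429570-40465415) and Il18rap (chr1:40515362-40551705). Chromosome 2 holds Il1rn on the plus strand (chr2:24336853-24351494) and, on the minus strand, the neighbours Il1a (chr2:129299610-129309972) and Il1b (chr2:129364570-129371139). Il18 is on chromosome 9 (chr9:50554827-50581840), Il1rap on chromosome 16 (chr16:26581704-26730117) and Il33 on chromosome 19 (chr19:29925114-29960718), each on the plus strand. Annotated exons of 3 members overlap an antisense gene: Gm14023 at Il1a, Il1bos at Il1b and Gm20319 at Il1rap. The strand setting of the counting is not given in the sources used here, so reads of each pair cannot be told apart. The antisense genes themselves were counted at 10 to 30 reads, 19 to 53 reads and 0 to 6 reads per library in that order, against at least 56 reads of Il1a, 370 of Il1b and 763 of Il1rap.

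The RefSeq promoter table (GRCm38.p6) held 15 start sites for the 10 members. The 200 bases upstream of 5 of these starts are shown because they belong to members that differ in how they behaved below: Il1a, Il1b and Il18rap were higher than TD under both patches, Il1rn under the No Strain patch, and Il33 under neither. Each is written 5′ to 3′ on the strand of the gene, ending at the base before the start, with motif matches in capitals.
Il1a, minus strand, chr2:129309973-129310172: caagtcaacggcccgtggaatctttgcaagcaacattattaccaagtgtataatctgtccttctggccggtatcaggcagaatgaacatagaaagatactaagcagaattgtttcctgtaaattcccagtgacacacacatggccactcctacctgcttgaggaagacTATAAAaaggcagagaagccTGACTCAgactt
Il1b, minus strand, chr2:129371140-129371339: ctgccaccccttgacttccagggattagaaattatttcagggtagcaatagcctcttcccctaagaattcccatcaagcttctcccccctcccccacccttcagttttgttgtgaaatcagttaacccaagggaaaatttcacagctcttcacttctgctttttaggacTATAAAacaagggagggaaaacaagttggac
Il18rap, plus strand, chr1:40515162-40515361: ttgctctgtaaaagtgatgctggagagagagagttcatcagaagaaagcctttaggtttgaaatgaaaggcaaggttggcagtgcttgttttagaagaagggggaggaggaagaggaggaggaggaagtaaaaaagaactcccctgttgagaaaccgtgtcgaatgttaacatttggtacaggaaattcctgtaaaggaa
Il1rn, plus strand, the most upstream of its starts, chr2:24336660-24336859: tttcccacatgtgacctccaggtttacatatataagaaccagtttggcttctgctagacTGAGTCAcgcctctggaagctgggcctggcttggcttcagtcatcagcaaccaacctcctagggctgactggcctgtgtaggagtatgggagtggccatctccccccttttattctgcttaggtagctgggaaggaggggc
Il33, plus strand, the downstream of its starts, chr19:29945590-29945789: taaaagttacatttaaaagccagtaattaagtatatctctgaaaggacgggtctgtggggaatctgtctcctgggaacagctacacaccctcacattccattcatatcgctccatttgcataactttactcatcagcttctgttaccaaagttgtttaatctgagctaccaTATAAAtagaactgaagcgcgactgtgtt
The capitals TATAAA mark a TATA box, read on the gene's strand only, which lies 32 to 27 bases before the Il1a start, 31 to 26 before the Il1b start and 29 to 24 before the Il33 start. The capitals TGACTCA in Il1a, 12 to 6 bases before the start, and TGAGTCA in Il1rn, 141 to 135 bases before, match the AP-1 motif TGANTCA. Motifs were searched in the 250 bases before each start, on both strands except for the TATA box, and no matches of different motifs overlapped in the sequences shown. Among the 15 member starts, 4 held TATAAA, 2 held TGANTCA, 2 held the C/EBP motif TTGCNNNAA (Il1rl1 and the upstream start of Il33) and 1 held the NF-kB motif (Il1r1). Among all 32851 promoters of the table, the shares were 7.59%, 6.75%, 8.29% and 7.25% in the same order. A match describes letters in this window and is not a measured binding site, and the Il18rap window holds none of these letters.

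Each library held between 20354677 and 25059371 gene counts, so the floor of 3 counts lies at or below 0.147 CPM (counts per 1000000 of the scaled library total) and every member was far above it in every library. The labelled tissue is a dorsal wound, and keratinocyte and fibroblast markers were present in all groups. Summed skeletal muscle markers ran from 6491 to 15882 CPM in TD, 2981 to 5743 in Strain and 4329 to 9460 in No Strain. Titles also carry an unexplained letter: TD has 1 L and 4 R, Strain 3 L and 1 R, No Strain 2 L and 1 R. TD titles are numbered 1 to 6 and patch titles 7 to 15, so title number and patch cannot be told apart.

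The agonists of the IL-1 receptor were higher under both patches than under film alone, whereas the 2 agonists of the other branches were not called. Against TD, Il1a was 2.86-fold higher in Strain and 5.91-fold higher in No Strain, and Il1b was 4.31-fold and 7.90-fold higher. Il18 and Il33 passed the test in neither comparison. Unless an alternative analysis is named, adjusted p-values are from edgeR's quasi-likelihood test with Benjamini-Hochberg adjustment over 18618 genes. Alternative analyses can use another test or number of genes. The threshold is 0.05 throughout. In whole-tissue RNA, fewer cells of a type and less RNA per cell cannot be told apart, which holds for every member.

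Il1a encodes IL-1 alpha, the form that needs no inflammasome to be active. In TD replicates 1 to 5 it measured 5.59, 3.49, 3.71, 3.63 and 2.46 CPM. In Strain replicates 1 to 4 it measured 13.8, 11.9, 7.32 and 10.2 CPM. In No Strain replicates 1 to 3 it measured 25.2, 23.7 and 18.2 CPM. The 3 groups did not overlap: every TD library was below every Strain library, and every Strain library was below every No Strain library. The log2 fold change against TD was 1.51 ± 0.231 (SE) for Strain (adjusted p = 0.00539) and 2.56 ± 0.243 for No Strain (adjusted p = 0.000439). Leaving out any single library kept both calls, and within title letter L and R the log2 differences were 1.08 and 1.14 for Strain and 1.88 and 2.91 for No Strain.

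Il1b encodes IL-1 beta, the inflammasome-processed form. The 5 TD libraries held 25.4, 35.9, 34.6, 19.9 and 16.2 CPM. The 4 Strain libraries held 75.2, 166, 43.6 and 170 CPM, and the 3 No Strain libraries 90.8, 265 and 270 CPM. Both patch groups lay above TD with no overlap but were spread widely, with the single R library lowest in each (Strain replicate 3 and No Strain replicate 1). Against TD the log2 fold change was 2.11 ± 0.446 for Strain (adjusted p = 0.0153) and 2.98 ± 0.475 for No Strain (adjusted p = 0.00377). Within L libraries the log2 difference from TD was 2.34 for Strain and 3.39 for No Strain, and within R libraries 0.79 and 1.85. With the letter as a covariate, the Strain value was 1.34 and no longer called (adjusted p = 0.117), whereas No Strain was called under each of the 22 alternative analyses (adjusted p at most 0.0345).

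Il33 was the most abundant member per length in TD, and its transcript was not called in either comparison. The TD libraries held 202, 151, 110, 137 and 145 CPM, the Strain libraries 105, 109, 114 and 105 CPM, and the No Strain libraries 161, 78.6 and 147 CPM. The Strain libraries were closely grouped (108 ± 4.43 CPM), with 3 of 4 below the lowest TD library and replicate 3 (114 CPM) within the TD range. On the log2 scale the difference from TD was -0.46 ± 0.204 for Strain (unadjusted p = 0.0444, adjusted p = 0.157) and -0.20 ± 0.221 for No Strain (adjusted p = 0.559). The 95% interval of the No Strain difference, -0.69 to 0.28, leaves room for a change of either sign. Within L libraries, with 1 in TD, the log2 differences from TD were -0.93 for Strain and -0.9 for No Strain. Within R libraries they were -0.24 and 0.26.

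Il18, whose precursor is cut by caspase-1 as that of IL-1 beta is, spanned 15.1 to 23.3 CPM in TD, 12.9 to 21.4 CPM in Strain and 12.0 to 16.5 CPM in No Strain. The ranges overlapped in each comparison. Log2 fold changes against TD were -0.11 (95% interval -0.48 to 0.25, adjusted p = 0.69) for Strain and -0.39 (-0.79 to 0.02, adjusted p = 0.166) for No Strain.

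**Figure D1:**
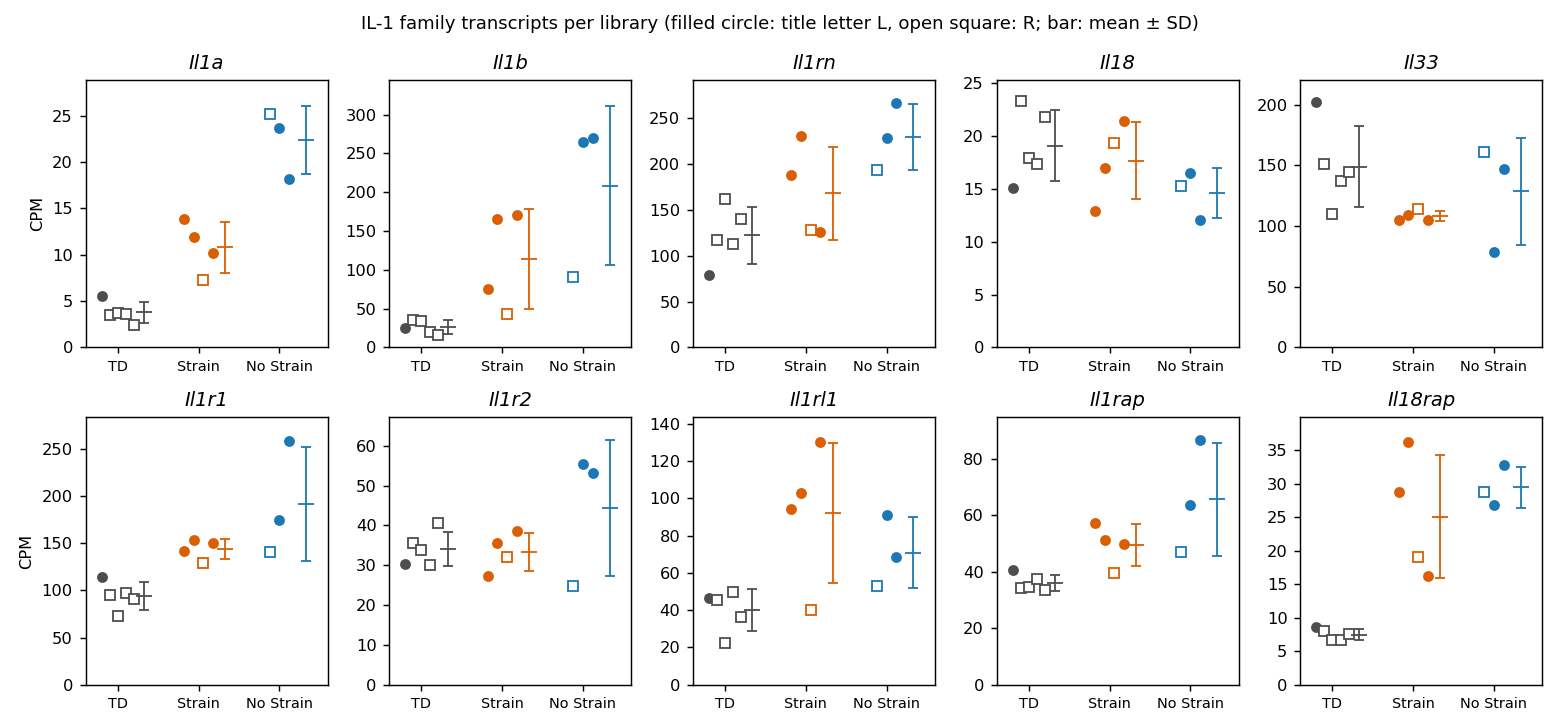
Each panel plots 1 member, with CPM on the vertical axis from 0, 1 point per library, and the mean ± SD beside each group (TD n = 5, Strain n = 4, No Strain n = 3). Filled circles are libraries with title letter L and open squares those with R. Il1a and Il18rap of both patch groups lie above all TD libraries, while Il18, Il33 and Il1r2 overlap between groups.

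The antagonist gene Il1rn rose in No Strain against TD and was not called in Strain against TD, and the 2 patches were not shown to differ in it. Il1rn measured 79.1, 117, 162, 113 and 140 CPM in TD, 188, 231, 128 and 126 CPM in Strain, and 194, 228 and 266 CPM in No Strain. All No Strain libraries were above all TD libraries, whereas 2 of the 4 Strain libraries lay inside the TD range. Against TD the log2 fold change was 0.91 ± 0.241 for No Strain (adjusted p = 0.0261) and 0.46 ± 0.224 for Strain (adjusted p = 0.197). The No Strain call was lost when TD replicate 2 or 4 or No Strain replicate 2 or 3 was left out (adjusted p from 0.0508 to 0.101, log2 0.79 to 0.91). It was also lost with title letter as a covariate (log2 0.89, adjusted p = 0.074) and without the filter on low counts (adjusted p = 0.0654). Within L libraries the log2 differences from TD were 1.15 for Strain and 1.64 for No Strain. Within R libraries they were -0.04 and 0.56. Secreted and intracellular forms of the antagonist come from the separate starts of this gene, and gene counts do not separate them.

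Set against its antagonist, Il1b stood higher in both patch groups than in TD. The log2 ratio of Il1b to Il1rn, each as CPM per kilobase of annotated exon, was -0.70 ± 0.61 (SD) in TD, 0.81 ± 0.90 in Strain and 1.25 ± 0.71 in No Strain. The ratio ran from -1.58 to -0.10 in TD, from -0.02 to 1.97 in Strain and from 0.44 to 1.75 in No Strain, so neither patch group overlapped TD, though Strain replicate 3 lay close to it. These ratios combine members already described and carry no test of their own. The sign of such ratios depends on the exon lengths used, while their differences between groups do not. The ratio of Il1b to Il1a, in contrast, overlapped across groups, with means of 2.84, 3.27 and 3.12 in the same order.

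Among the receptors, the signalling chain Il1r1 rose under both patches and the decoy Il1r2 did not pass the test under either. Il1r1 measured 114, 95.1, 73.0, 97.3 and 90.8 CPM in TD, 142, 153, 129 and 150 CPM in Strain, and 141, 174 and 258 CPM in No Strain. Every patch library was above every TD library. The log2 fold change was 0.61 ± 0.164 for Strain (adjusted p = 0.0344) and 1.02 ± 0.175 for No Strain (adjusted p = 0.00479). The Strain call was lost without any of TD replicates 2, 3, 4 and 5 or Strain replicates 1, 2 and 4 (adjusted p 0.0624 to 0.107), at nearly the same size (log2 0.53 to 0.61). It was also lost with title letter as a covariate (log2 0.41, adjusted p = 0.118) and without the low-count filter (adjusted p = 0.0664). The No Strain call was kept under all 22 alternatives.

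Il1r2 measured 30.3, 35.5, 33.8, 30.1 and 40.7 CPM in TD, 27.4, 35.5, 32.0 and 38.6 CPM in Strain, and 24.7, 55.4 and 53.2 CPM in No Strain. The No Strain group held both the lowest library, replicate 1, and the 2 highest. Replicate 1 was also the only R library of No Strain. The log2 difference of No Strain from TD was 0.84 within L libraries and -0.49 within R libraries, so its sign turned with the title letter. Log2 fold changes against TD were -0.03 (95% interval -0.48 to 0.42, adjusted p = 0.942) for Strain and 0.38 (-0.10 to 0.87, adjusted p = 0.254) for No Strain. Without No Strain replicate 1, which leaves only L libraries in that group, the latter was 0.67 and called (adjusted p = 0.0181). The log2 ratio of decoy to signalling receptor per kilobase was 0.28 ± 0.35 in TD, -0.38 ± 0.19 in Strain and -0.41 ± 0.44 in No Strain. Strain libraries, from -0.64 to -0.22, lay below TD libraries, from -0.18 to 0.63, while No Strain replicate 2 lay at 0.09 within the TD range.

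Il1rap encodes the coreceptor that IL-1 and IL-33 receptors share. It measured 40.6, 34.1, 34.5, 37.4 and 33.5 CPM in TD, 57.2, 51.1, 39.6 and 49.9 CPM in Strain, and 46.9, 63.6 and 86.7 CPM in No Strain. TD libraries were closely grouped, and 1 Strain library, replicate 3, fell inside their range. The log2 fold change was 0.87 ± 0.167 for No Strain (adjusted p = 0.00744) and 0.46 ± 0.156 for Strain (adjusted p = 0.0766). The Strain value passed the threshold without Strain replicate 3 (log2 0.54, adjusted p = 0.0495), No Strain replicate 1 (adjusted p = 0.035) or No Strain replicate 3 (adjusted p = 0.0327). It also passed with DESeq2 (adjusted p = 0.0456) and with only the 2 compared groups in the fit (adjusted p = 0.0261). These were 5 of 22 alternatives. Soluble and membrane forms of Il1rap, of Il1rl1 and of Il1r2 were counted together.

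Il1rl1 encodes ST2, whose membrane form carries the IL-33 signal and whose soluble form binds IL-33 without signalling. It measured 46.4, 45.6, 22.4, 50 and 36.6 CPM in TD, 94.4, 103, 40.3 and 130 CPM in Strain, and 52.9, 90.9 and 68.4 CPM in No Strain. Of the Strain libraries 3 were well above TD and replicate 3 lay within it, whereas all No Strain libraries were above TD by a smaller margin. Strain was called (log2 1.19 ± 0.315, adjusted p = 0.0329) although its libraries overlapped with TD, and No Strain was not (log2 0.82 ± 0.338, adjusted p = 0.117) although they did not. The difference between the patches was 0.37 (95% interval -0.42 to 1.17, adjusted p = 0.944), so Il1rl1 was not shown to respond to 1 patch and not the other. The Strain call was lost when any of the 5 TD libraries, or Strain replicate 1, 2 or 4, was left out (adjusted p 0.0514 to 0.0943, log2 0.98 to 1.27), with limma-voom (adjusted p = 0.0729), without the low-count filter (adjusted p = 0.0967) and with title letter as a covariate (log2 0.69, adjusted p = 0.21). The No Strain value was called without Strain replicate 3 (adjusted p = 0.0472). Within R libraries the Strain difference was 0.13, against 1.22 within L libraries.

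Il18rap, the signalling chain of the IL-18 receptor, was the member with the lowest level per length in each group and among the largest changes. It measured 8.56, 7.97, 6.62, 6.66 and 7.63 CPM in TD, 28.8, 36.2, 19.1 and 16.3 CPM in Strain, and 28.8, 26.8 and 32.8 CPM in No Strain. No patch library came near the TD range. The log2 fold change was 1.74 ± 0.206 for Strain (3.35-fold, adjusted p = 0.00251) and 1.98 ± 0.218 for No Strain (3.94-fold, adjusted p = 0.00101). Within L and R libraries the log2 differences were 1.58 and 1.40 for Strain and 1.78 and 1.99 for No Strain. The binding chain Il18r1, outside the 10 members, was not called in either comparison, with log2 values of 0.23 and 0.16.

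Over the family, 5 of 10 members were called in Strain against TD, each higher (Il1a, Il1b, Il1r1, Il1rl1 and Il18rap), beside 12.6% of all genes called in either direction and 6.20% called higher. In No Strain against TD, 6 of 10 were called, each higher (Il1a, Il1b, Il1rn, Il1r1, Il1rap and Il18rap), beside 17.8% of all genes in either direction and 9.35% higher. Groups did not overlap for 4 members in the former, all higher, where 14.6% of genes did not overlap and 7.47% were higher without overlap. They did not overlap for 7 members in the latter, all higher, where the shares were 26.7% and 14.3%. The median log2 fold change of the 10 members was 0.53 for Strain and 0.89 for No Strain, against 0.02 and 0.00 over all genes. Both comparisons share the TD libraries, so their values are not independent of each other. The Strain count was 3 without TD replicate 2, 3, 4 or 5 or Strain replicate 1, 2 or 4. It was also 3 without the filter on low counts, and 2 (Il1a and Il18rap) with title letter as a covariate.

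With the mean of the skeletal muscle markers as a covariate, 0 members were called in Strain against TD and 4 in No Strain against TD (Il1a, Il1b, Il1r1 and Il18rap). The same covariate left 1 gene of all 18618 called in Strain against TD. Under it the log2 fold changes in Strain were 1.40 for Il1a, 2.30 for Il1b, 1.62 for Il18rap, 0.66 for Il1r1 and 0.22 for Il1rl1 (adjusted p 0.353 to 0.934). Only Il1rl1 moved far from its value without the covariate. The mean log2 level of the muscle markers ran from 7.68 to 9.0 in TD and 6.65 to 7.49 in Strain, without overlap. In No Strain it ran from 7.16 to 8.13, which overlapped TD. Covariate and group are therefore hard to separate in Strain, so neither lost calls nor kept sizes tell the part of muscle content. That part was not otherwise tested.

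**Figure D2:**
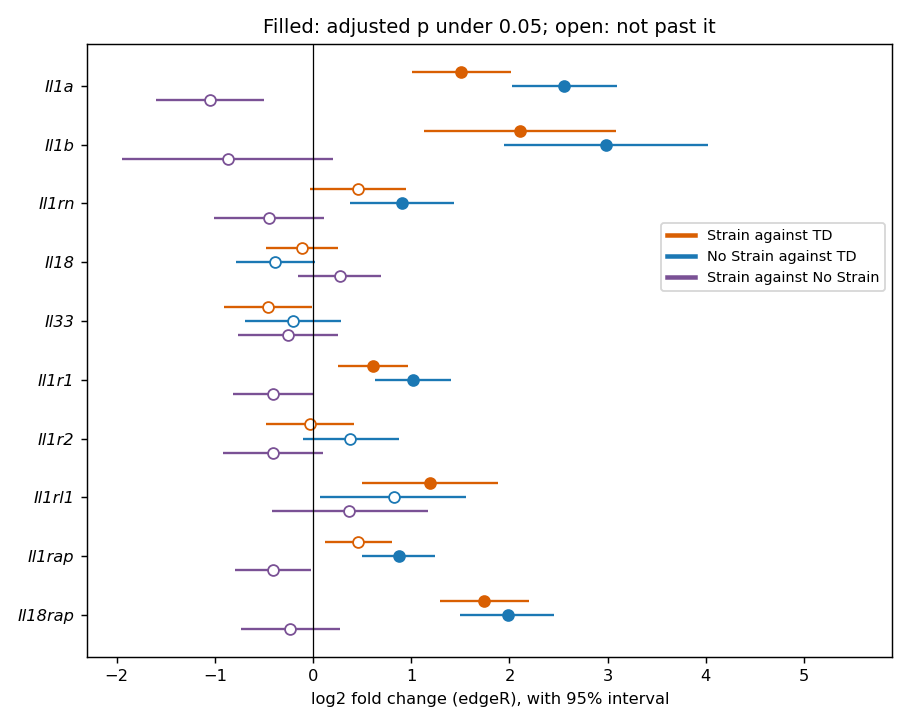
The horizontal axis gives the log2 fold change of each member from edgeR with its 95% interval, for Strain against TD, No Strain against TD and Strain against No Strain. Filled points have an adjusted p under 0.05: they number 5 of 10 and 6 of 10 in the comparisons with TD and 0 of 10 between the patches.

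Strain was compared with No Strain to ask whether mechanical strain, beyond the patch, moved the family, and 0 of 10 members were called by edgeR, beside 0% of all genes. At an unadjusted p under 0.05, 3 members were lower in Strain (Il1a, Il1r1 and Il1rap), where 5.61% of all genes reached that level in either direction and 2.80% were lower. Il1a had the clearest separation: its 4 Strain libraries (7.32 to 13.8 CPM) lay below its 3 No Strain libraries (18.2 to 25.2 CPM), as 2.77% of genes did, while 5.62% of genes did not overlap in either direction. Its log2 difference was -1.05 (95% interval -1.60 to -0.50, unadjusted p = 0.00139, adjusted p = 0.872). DESeq2 called Il1a and no other member (adjusted p = 0.0389), among 33 genes in all. The other 21 alternatives did not call it.

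For Il1r1 the fold of Strain over No Strain was 0.752 (95% interval 0.567 to 0.998, adjusted p = 0.872). For Il1rap it was also 0.752 (0.575 to 0.985, adjusted p = 0.872). Il1b was 0.545-fold, with an interval of 0.258 to 1.15 that includes both a large fall and a small rise. The intervals of Il1rn (0.498 to 1.08), Il1r2 (0.527 to 1.07), Il33 (0.591 to 1.19), Il18rap (0.602 to 1.20), Il18 (0.903 to 1.61) and Il1rl1 (0.749 to 2.24) included 1. With 4 and 3 libraries, these intervals do not show that the patches act alike. The median log2 difference of the 10 members was -0.41, against 0.01 over all genes.

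Compared per length, the family changed its order between film and patch. Length is that of all annotated exons of a gene joined, from 1031 bases for Il18 to 11360 for Il1rap. It can exceed the length of any single transcript, so the order of members within a group depends on it. In TD the mean levels ran from Il33 (51.5 CPM per kilobase), Il1rn (22.1), Il18 (18.5), Il1r2 (17.9), Il1r1 (14.8) and Il1b (13.8) down to Il1rl1 (5.83), Il1rap (3.17), Il1a (1.91) and Il18rap (1.11). Il33 lay above Il1rn in 5 of 5 TD libraries with no overlap, and gaps without overlap also followed Il1b and Il1rap. The ranges of Il1rn, Il18, Il1r2, Il1r1 and Il1b overlapped from each to the next. Il1b was sixth of the 10 in TD and the first by mean in Strain (59.7) and No Strain (109), although it overlapped there with Il33 (37.4 and 44.7), which it exceeded in 3 of 4 and 2 of 3 libraries. In Strain the order then ran Il1rn (30.4), Il1r1 (22.6), Il1r2 (17.5), Il18 (17.1), Il1rl1 (13.3), Il1a (5.48), Il1rap (4.36) and Il18rap (3.72), where only Il1r1 and Il1r2 were separate neighbours. In No Strain it ran Il1rn (41.4), Il1r1 (30.0), Il1r2 (23.3), Il18 (14.2), Il1a (11.3), Il1rl1 (10.3), Il1rap (5.79) and Il18rap (4.37), where only Il1rl1 and Il1rap were.

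**Figure D3:**
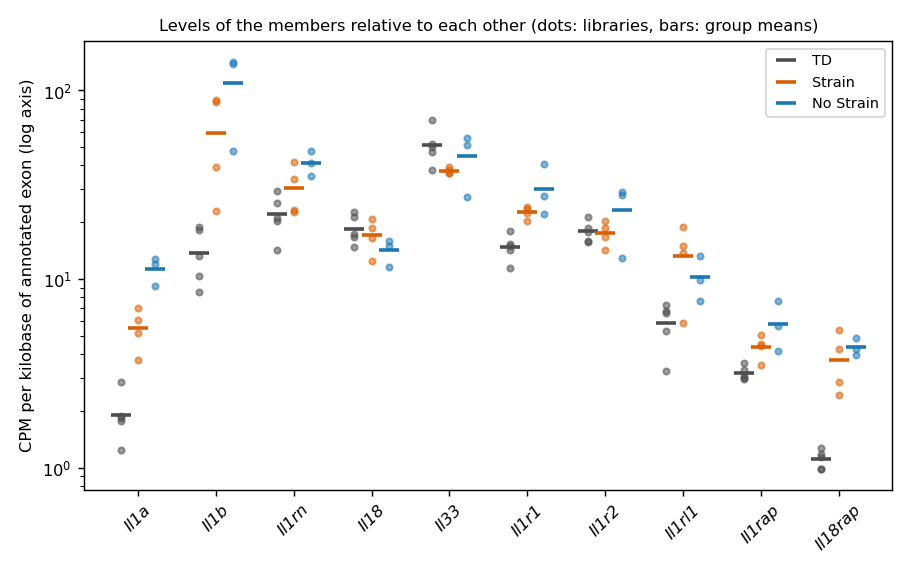
The vertical log axis gives CPM per kilobase of annotated exon, so that members can be set against each other, with dots for libraries and bars for group means. Il33 is highest in TD at 51.5, and Il1b has the highest mean in Strain at 59.7 and in No Strain at 109.

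Of the 9 other ligands, receptors and regulators of the family, 3 were called in each patch comparison, 2 higher and 1 lower. The shares of all genes called were 12.6% in Strain and 17.8% in No Strain. Median log2 fold changes of the list were 0.26 for Strain and 0.22 for No Strain. Il1f6, which encodes the epithelial agonist IL-36 alpha, rose from 5.85 ± 2.74 CPM in TD to 29.5 ± 22.6 in Strain and 28.5 ± 20.4 in No Strain (adjusted p = 0.0243 and 0.0241). Il18bp, the soluble inhibitor of IL-18, rose from 6.57 ± 0.965 CPM to 28.8 ± 19.1 and 26.3 ± 5.53 (adjusted p = 0.00727 and 0.00624). Il1f10, which encodes IL-38, fell from 1.65 ± 0.436 CPM to 0.531 ± 0.119 and 0.265 ± 0.193 (adjusted p = 0.0139 and 0.00371). Its No Strain libraries held 2 to 11 counts, reaching below the floor of 3 counts. The agonist gene Il1f9 and the inhibitory receptor gene Sigirr were not called in either comparison.

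Genes that process the cytokines moved in part. Of 14 tested inflammasome and processing genes, the same 6 rose in each patch comparison (Nlrp3, Aim2, Mefv, Casp4, Gsdmd and Panx1), with list medians of 0.42 and 0.48. Among all genes 6.20% were called higher in Strain and 9.35% in No Strain. Mefv, which encodes the sensor pyrin, went from 6.30 ± 0.959 CPM in TD to 26.6 ± 10.6 in Strain and 33.6 ± 9.28 in No Strain (log2 2.08 and 2.41, adjusted p = 0.00251 and 0.00089). Nlrp3, a sensor of cell damage, went from 6.92 ± 1.56 CPM to 21.9 ± 9.50 and 28.0 ± 13.0 (adjusted p = 0.0123 and 0.00485). Casp1, the protease that matures IL-1 beta and IL-18, was not called, with log2 values of 0.54 and 0.46, nor was the adaptor gene Pycard at 0.44 and 0.15. Elane was too low to test.

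Of 21 genes of the signalling chain downstream of the receptors, 2 rose in Strain and 3 in No Strain, with medians of 0.06 and 0.08. These counts are near the shares of all genes called higher, 6.20% and 9.35%, and so say nothing about the list. They were Nfkbia, an NF-kB inhibitor that NF-kB itself induces (96.9 ± 13.7 CPM in TD, 192 ± 65.8 in Strain, 239 ± 35 in No Strain), the adaptor Myd88 (log2 0.45 and 0.65) and, in No Strain, the kinase Irak2 (log2 0.52, adjusted p = 0.0395). The Strain count fell to 1 without TD replicate 1, 2, 3 or 4, Strain replicate 2 or No Strain replicate 1.

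Genes that IL-1 is known to induce, which other cytokines induce too, rose more widely. Of 22, 9 rose in Strain and 19 in No Strain, and 0 fell, with median log2 fold changes of 1.14 and 2.16. The shares of all genes called higher were 6.20% and 9.35%. Csf3, the granulocyte growth factor G-CSF, rose from 0.261 ± 0.256 CPM in TD to 3.69 ± 1.72 in Strain and 12.1 ± 10.4 in No Strain (adjusted p = 0.0109 and 0.00228). Its TD libraries held 1 to 17 counts, reaching below the floor of 3 counts. Cxcl2, a neutrophil chemoattractant, rose from 15.3 ± 5.03 CPM to 84.7 ± 48.8 and 141 ± 64.5 (adjusted p = 0.00893 and 0.00273). Vcam1, a leukocyte adhesion molecule, rose from 34.9 ± 6.16 CPM to 71.9 ± 18 and 78.5 ± 8.27 (adjusted p = 0.00726 and 0.00357). The 3 genes not called in No Strain were Cxcl5, Ccl2 and Saa3. The Strain count was 3 or 4 without TD replicate 2, 3, 4 or 5 or Strain replicate 2, and the No Strain count was 12 without No Strain replicate 3. Between the patches 0 of 22 were called, so the larger No Strain count was not shown to be a difference between patches.

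Genes linked to the other branches were counted in the same way. Of 10 tested genes of IL-33 and type 2 responses, 1 rose and 2 fell in Strain, and 3 rose and 4 fell in No Strain, with medians of -0.50 and -0.79. Among all genes 12.6% were called in either direction in Strain and 17.8% in No Strain. The Strain count, 3 of 10 called, therefore says little about the list. Retnla, a marker of alternatively activated macrophages, fell from 36.8 ± 7.30 CPM in TD to 1.44 ± 0.289 in Strain and 0.726 ± 0.334 in No Strain (log2 -4.68 and -5.65, adjusted p = 7.08e-06 and 8.63e-06). The eosinophil chemoattractant gene Ccl24 fell (log2 -2.23 and -2.15), while Chil3, a chitinase-like protein of myeloid cells, rose (log2 1.39 and 1.71). In No Strain Areg and Il4ra also rose and Gata3 and Ccl17 fell. That count was 3 of the 10 without No Strain replicate 3, and Il5 and Il9 were too low to test.

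Of 10 genes of IL-18 and type 1 responses, 6 rose in Strain and 8 in No Strain, with medians of 1.63 and 1.78. Beside these counts stand 6.20% and 9.35% of all genes called higher. Ifng, interferon gamma, was at 0.140 ± 0.0446 CPM in TD, near the floor of 3 counts, and rose to 0.940 ± 0.701 in Strain and 1.73 ± 1.07 in No Strain (adjusted p = 0.0236 and 0.00582). Gzmb, a cytotoxic granule protease, rose from 2.41 ± 0.460 CPM to 9.35 ± 4.73 and 10.5 ± 3.74 (adjusted p = 0.0089 and 0.00477). Stat4, which carries the IL-12 signal, rose by log2 1.16 and 1.57. The Strain count was 1 without Strain replicate 2 and 3 without TD replicate 2 or 4. The No Strain count was 5 without TD replicate 1, 2 or 5 or No Strain replicate 1 or 2. With title letter as a covariate, the Strain counts were 2 for this list, 2 for the IL-1 inducible genes, 0 for receptor signalling and 3 for the inflammasome list. With muscle markers as a covariate they were 0 for each of these 4 lists and 1 for the type 2 list, and the No Strain counts were 2, 9, 2, 2 and 3 in the order type 1, IL-1 inducible, signalling, inflammasome and type 2.

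**Figure D4:**
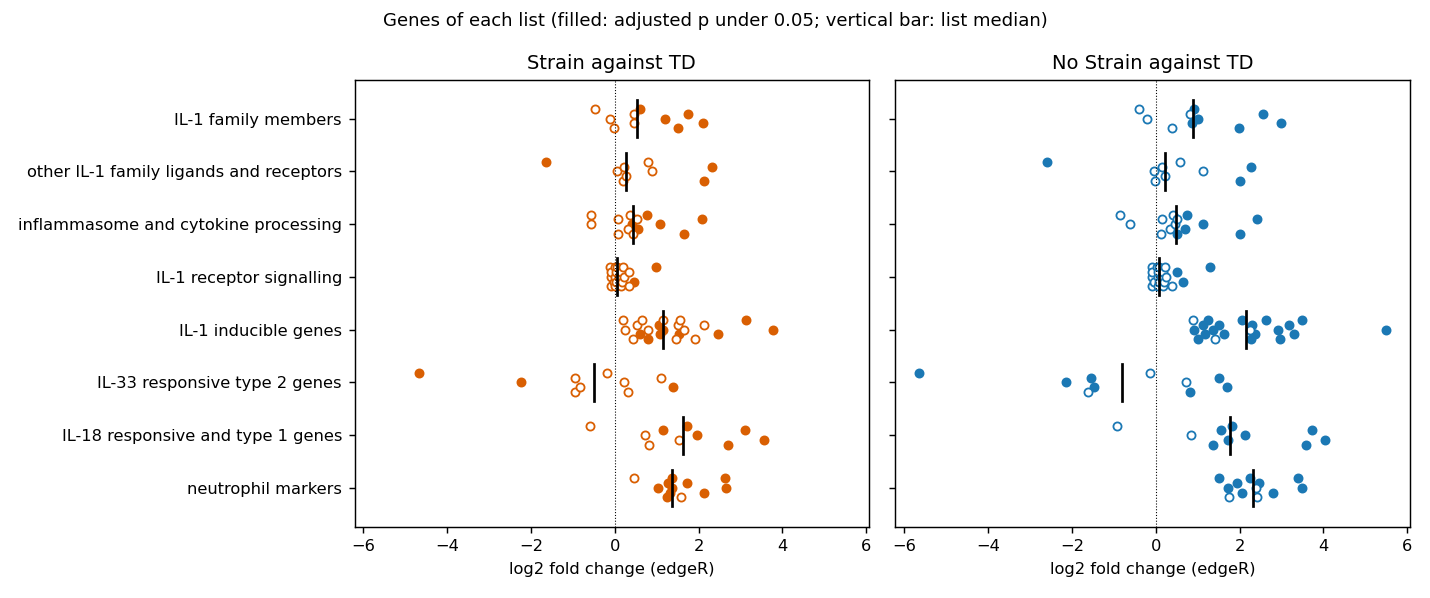
Points give the log2 fold change against TD of each tested gene in the 10 members, the 6 related lists and the neutrophil markers, filled where the adjusted p is under 0.05, with a bar at the list median. The receptor signalling genes cluster at medians of 0.06 and 0.08, whereas the IL-1 inducible genes lie at medians of 1.14 and 2.16.

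Markers of leukocytes moved alongside these members. To set beside the counts that follow, 6.20% of all genes were called higher in Strain and 9.35% in No Strain. Of 12 neutrophil markers, 10 rose in Strain and 9 in No Strain, and their summed level ran from 533 to 1713 CPM in TD, 1016 to 8826 in Strain and 2384 to 5353 in No Strain. S100a8 and S100a9 carry most of these sums, with means of 1688 and 2207 CPM in Strain. The mean log2 level, which weights the 12 markers equally, ran from 3.38 to 3.81 in TD, 4.46 to 5.39 in Strain and 5.30 to 6.42 in No Strain. The defining marker Ly6g had 0 to 5 counts per library in TD, 5 to 9 in Strain and 13 to 40 in No Strain, with the TD mean below the floor of 3 counts, so no fold is given. It was called in No Strain (adjusted p = 0.00553) and not in Strain (adjusted p = 0.146). The Strain count was 4 or 5 without TD replicate 3, 4 or 5 or Strain replicate 2, 1 with title letter and 0 with muscle markers as a covariate. Of 12 markers of T cells, NK cells and innate lymphoid cells, 5 rose in each comparison, with summed levels of 56.9 to 89.3 CPM in TD, 84.7 to 169 in Strain and 119 to 135 in No Strain. That count fell to between 1 and 3 in Strain without any of the 5 TD libraries, Strain replicate 2 or 3 or No Strain replicate 2. In No Strain it fell to 3 without TD replicate 4 and to 1 without No Strain replicate 1.

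Of 12 macrophage and monocyte markers only the monocyte genes Ccr2 and Ly6c2 rose, in both comparisons, with sums of 1439 to 3115, 2385 to 3271 and 2279 to 3429 CPM. In No Strain that count was 1 without TD replicate 1 or 3 or No Strain replicate 1 or 3. Mast cell markers, of a cell type that carries ST2, had 0 of 8 called in either comparison (sums of 277 to 546, 269 to 455 and 309 to 350 CPM). Over all genes 12.6% were called in Strain and 17.8% in No Strain, so counts of 0 of 8 or 2 of 12 say little about a list. Of 6 endothelial markers 3 rose in each comparison (Emcn, Pecam1 and Cdh5) and 0 fell, with sums of 379 to 473, 467 to 673 and 525 to 604 CPM. With muscle markers as a covariate, that count was 0 in Strain. Among 12 keratinocyte markers 1 rose and 2 fell in each comparison, and 0 of 8 fibroblast markers were called. Adipocyte markers fell for 4 of 8 genes in Strain and 7 of 8 in No Strain. The Strain count was 2 without TD replicate 3 or 4 or Strain replicate 2 or 4 and 7 without TD replicate 5, and the No Strain count was 4 without No Strain replicate 3. Of 11 tested skeletal muscle markers 7 fell in Strain and 3 in No Strain, where the count was 5 without TD replicate 5 and 1 without No Strain replicate 2. No marker of any list was at 0 in every library of a group. The part of these cell types in the IL-1 family results was not tested.

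Across the 12 libraries the mean log2 level of the neutrophil markers followed several members, a description that pools the 3 groups. Pearson's r was 0.95 for Il1b, 0.94 for Il1r1 and Il1rap, 0.93 for Il1a and Il18rap, 0.78 for Il1rn, 0.70 for Il1rl1 and 0.41 for Il1r2. For Il33 and Il18 it was -0.35 and -0.59. After the group means were subtracted, r was 0.87 for Il1rap, 0.79 for Il1b and 0.76 for Il1r1, but 0.27 for Il1a. It was 0.52 for Il18rap, 0.51 for Il1rl1, 0.48 for Il1r2, 0.36 for Il1rn, 0.1 for Il33 and -0.41 for Il18. Neutrophil markers thus varied with Il1b, Il1r1 and Il1rap from wound to wound inside the groups, and less with Il1a. Other lists also followed members over all libraries. Adipocyte markers had r of -0.85 with Il1r1 (-0.39 within groups) and -0.82 with Il18rap (-0.19). Markers of T cells, NK cells and innate lymphoid cells had r of 0.87 with Il18rap (0.4). Il1rl1 had r of -0.79 with skeletal muscle markers (-0.54 within groups) and 0.59 with fibroblast markers (0.7). Il1r2 was lower where keratinocyte markers were higher, with r of -0.78 over all libraries and -0.85 within groups.

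**Figure D5:**
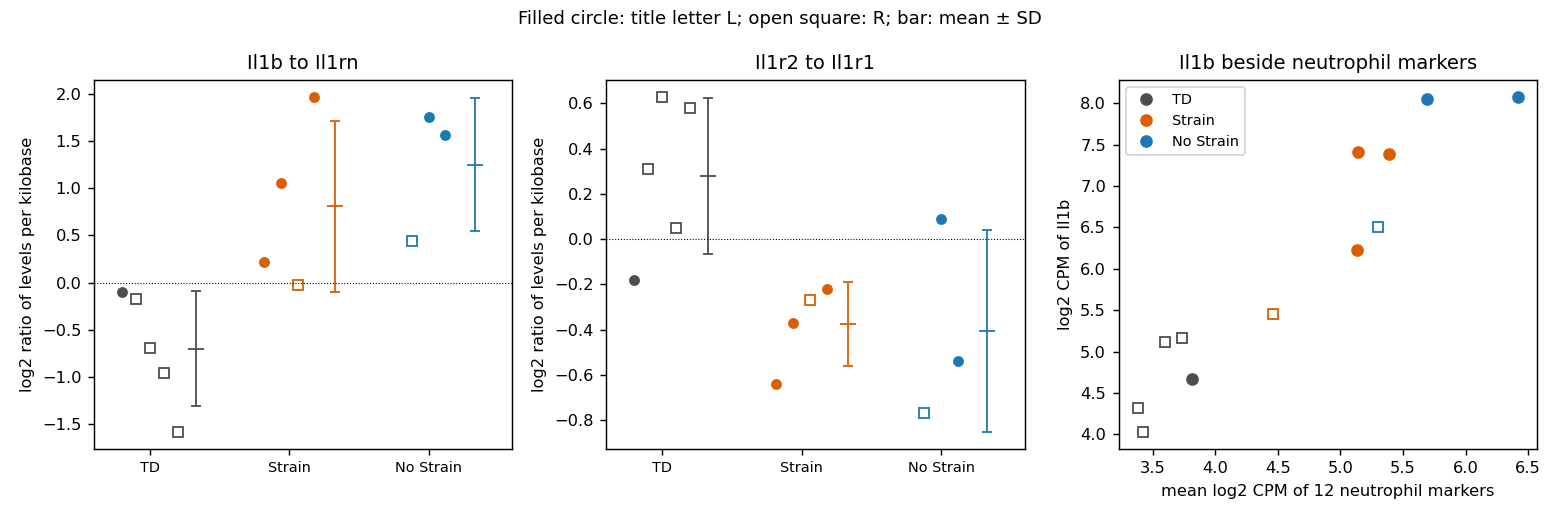
The left and middle panels plot the log2 ratio, per kilobase, of Il1b to Il1rn and of Il1r2 to Il1r1 for each library with mean ± SD, and the right panel plots log2 CPM of Il1b against the mean log2 CPM of 12 neutrophil markers. Filled circles are title letter L and open squares R. The Il1b to Il1rn ratio is at most -0.10 in TD and at least -0.02 in the patch groups, and Il1b follows the neutrophil markers with r of 0.95 over 12 libraries.

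The genes most like each member were the 3 with the highest Pearson's r of log2 CPM over the 12 libraries among all tested genes. Such values share the library and the group structure, and r within groups is given second. For Il1b they were Arg2 (0.98, 0.93), Osm (0.98, 0.92) and Trem1 (0.98, 0.94), of which Trem1 is one of the neutrophil markers. Il1r1 was most like Bub3 (0.98, 0.95), Cxcr2 (0.97, 0.90) and Fcrlb (0.97, 0.89). Il1rap was most like Mmp3 (0.98, 0.93), Fcrlb (0.97, 0.93) and Cxcr2 (0.95, 0.86), and its r with Il1r1 itself was 0.95 (0.83 within groups). Both receptor genes thus had Cxcr2 and Fcrlb among their 3 nearest.

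The remaining members had other neighbours. Il1a was most like Suco (0.97, 0.82), Rbm17 (0.95, 0.71) and Psmb4 (0.95, 0.68). The nearest gene was Rnd1 for Il18rap (0.98, 0.95), Zswim4 for Il1rn (0.93, 0.85), Filip1l for Il1rl1 (0.94, 0.88) and Itpripl2 for Il1r2 (0.90, 0.88). The nearest values were lowest for Il18 (Elavl4, 0.88, 0.87) and Il33 (Gm5452, 0.85, 0.86). The ligand Il33 and its receptor Il1rl1 had r of -0.42 over all libraries and -0.06 within groups.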

How the data were processed

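Per the file headers, the deposited files give raw counts for Ensembl genes, each for a single library. Per the submitters' processing notes, bcl2fastq 2.17, FastQC, cutadapt, STAR, featureCounts and DESeq2 were used with GRCm38. Strand setting, annotation release and the rule for reads matching several genes are not given in the sources used here. Per the labels' protocols, libraries came from oligo(dT)-enriched RNA.

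Symbols and exon lengths came from GENCODE M21, which matched 54165 of 54232 identifiers. All 12 libraries entered 1 edgeR 4.0.16 quasi-likelihood fit (R 4.3.3, filterByExpr with a minimum count of 10 and total of 15, TMM scaling, robust spread). Standard errors derive from the F statistic. CPM is the count times 1000000 over the TMM-scaled library total, and its log2 form uses a prior count of 2. The fit was tested on simulated counts. No library was a duplicate of another in its group: replicate pairs (19 in all) had chi-square values of 9.53 to 75 per degree of freedom. Pairs from different groups were not checked. Floors cover counting error only.

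Members and gene lists were chosen with earlier results of these data known. Beyond the members, text names up to 3 called genes per list, comparison and direction by smallest p, or 2 uncalled ones, and the 3 genes most like each member. Called genes outside that rule (Casp4, Gsdmd, Ly6g, S100a8, S100a9, Ccl17) and uncalled genes named with values were chosen after their values were seen. Alternatives were other scalings, DESeq2 1.42.0, limma-voom (limma 3.58.1), other filters, covariates, other fits and leaving out each library. Designed protein comparisons were not made.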

Additional observations from a re-analysis of the deposited data

How the results depend on the processing

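The members called in Strain against TD (5) became 3 without a filter on low counts, 2 with title letter as a covariate, 0 with skeletal muscle markers as a covariate and 3 to 6 when single libraries were left out. The corresponding counts over all genes (2349) were 1527, 798, 1 and 882 to 2458. In No Strain against TD the members called stayed between 4 and 7 under every alternative, while all genes called (3305) became 2145 with title letter, 928 with muscle markers and 1505 to 3415 when single libraries were left out. Between the patches, DESeq2 called 1 member (Il1a) and 33 genes where edgeR called 0, and leaving out single libraries gave 0 to 0. The cause of these shifts was not tested. With library totals as the only scaling, 38.1% of the calls in No Strain against TD were higher, against 52.7%.

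Directions that turned were all of uncalled values. In Strain against TD, Il18 was 0.02 with title letter and 0.01 without Strain replicate 1, and Il1r2 was 0.04 without TD replicate 5 and 0.05 without Strain replicate 1. When single libraries were left out, Il18 ran from -0.22 to 0.01 and Il1r2 from -0.11 to 0.05. Il33 in No Strain against TD was 0.05 without No Strain replicate 2 and ran from -0.40 to 0.05, and Il1rl1 between the patches was -0.10 with muscle markers. Of the member folds under alternatives, 612 kept their direction and side of the threshold, 34 lost a call and 8 gained one. No paired analysis was possible because the titles share no replicate numbers between groups. The number of libraries, 3 to 5 per group, limits the precision of each difference, and every member was above the floor of 3 counts in every library.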

Other observations

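A screen of the 10 members in the groups of 4 and 5 libraries, with the ratios and marker means, covered 28 sets of values and found 0 libraries standing apart, where about 1.4 are expected by chance.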
